A study of Rattus norvegicus with 6 samples.

Results

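The transcripts of 10 genes of amino acid and one-carbon synthesis were measured by RNA sequencing in rat nasal mucosa mesenchymal stem cells. They were chosen by name as metabolic targets of the transcription factor ATF4 and matched exactly to gene symbols. The 10 genes are Phgdh, Psat1 and Psph of serine synthesis, Asns of asparagine synthesis, Shmt1, Shmt2, Mthfd2 and Mthfd1l of one-carbon metabolism, and Aldh18a1 and Pycr1 of proline synthesis. All 10 had a row among the 20653 genes of the tables, and all 10 passed the filter on low counts that left 14505 genes for testing. The labels give 3 libraries of EMSC and 3 of NPS-EMSC, both primary cells with SD as the genotype and with no age, time or dose. By the series title, the NPS-EMSC overexpress neuropeptide S, a peptide that signals through its own receptor, and the study's wider setting is spinal cord injury in rats. How the gene was delivered, and whether EMSC received an empty vector, is not in the labels, so delivery and selection cannot be told apart from neuropeptide S itself. Nothing in the labels says that the 3 libraries of a group came from separate animals or cultures, and p-values then measure only the spread between these libraries, which may be technical.

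Cells make serine from the glycolytic intermediate 3-phosphoglycerate. The carbon that serine gives up when it becomes glycine is carried on folate, in mitochondria and in the cytosol, and is used for purines, thymidylate and methionine. Proline is made from glutamate, and asparagine from aspartate with the amide nitrogen of glutamine. When amino acids run short or unfolded proteins accumulate, kinases of the integrated stress response phosphorylate the initiation factor eIF2, translation of Atf4 mRNA increases, and the ATF4 protein binds composite C/EBP-ATF elements in the genes of these enzymes. Collagen-producing mesenchymal cells are heavy users of glycine and proline.

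The libraries held between 39082245 and 40261205 counted reads. Nps, the neuropeptide S gene, had 0, 0 and 10 reads in the 3 EMSC libraries and 93566, 77014 and 85916 in the 3 NPS-EMSC libraries, so the libraries stood where their labels put them. Of 8 mesenchymal stem cell markers 7 rose and 1 fell, and their summed level was 3369 to 3559 FPKM in EMSC and 4297 to 4605 in NPS-EMSC. The most abundant was Vim, the intermediate filament vimentin, at 2575 ± 108 FPKM in EMSC and 3110 ± 174 in NPS-EMSC (SD, n = 3). Nt5e, the surface marker CD73, rose from 4.96 ± 0.518 to 21.5 ± 0.88 FPKM, and Pdgfra, a growth factor receptor, fell from 215 ± 14.4 to 108 ± 2.38 FPKM; both were named after their values were seen. FPKM, the level used throughout, is the read count scaled by gene length and by library total. Of the 6 epithelial markers, 2 were tested and both rose, Krt18 from 0.512 ± 0.14 to 4.3 ± 0.624 FPKM and Krt8 from 1.58 ± 0.202 to 2.56 ± 0.585 FPKM (both keratins of simple epithelia), and the summed level was 2.16 to 2.41 FPKM in EMSC and 6.04 to 7.78 in NPS-EMSC. The defining epithelial marker Epcam was at 0.0227 ± 0.0393 and 0.0234 ± 0.0405 FPKM and the endothelial cadherin Cdh5 at 0.00799 ± 0.0138 and 0 FPKM. The summed level of 8 leukocyte markers was 51.8 to 57.9 FPKM in EMSC and 24.4 to 26.3 FPKM in NPS-EMSC, mostly through the lysozyme gene Lyz2, and Ptprc, the pan-leukocyte marker, was at 0.153 ± 0.0536 and 0.00166 ± 0.00288 FPKM. Of the 7 leukocyte markers tested, 5 fell and 2 rose. Lyz2 fell from 38.8 ± 5.29 to 2.76 ± 0.684 FPKM. Cd14, the most abundant of these markers in NPS-EMSC, rose from 8.68 ± 1.49 to 17.5 ± 0.443 FPKM. Of 6 tested markers of neural crest and glia, 5 fell and 1 rose (summed level 77.4 to 80.8 FPKM in EMSC and 54.4 to 56.4 in NPS-EMSC). Among 10 proliferation markers 8 fell and 1 rose, and their summed level was 101 to 113 FPKM in EMSC and 78.3 to 86.0 in NPS-EMSC. These counts stand against 29.7% of all tested genes called higher and 29.5% lower. The part of these shifts in the results that follow was not tested. In bulk RNA, fewer cells of a type and less RNA per cell cannot be told apart.

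The synthesis genes were split. Higher in NPS-EMSC were Pycr1, Mthfd2, Asns, Shmt2 and Shmt1. The first enzymes of serine synthesis, Phgdh and Psat1, and the mitochondrial formate-producing enzyme gene Mthfd1l were lower. Psph and Aldh18a1 did not pass the test. In counts, 5 of 10 were called higher and 3 of 10 lower by edgeR's quasi-likelihood F test, where a call is an adjusted p (Benjamini-Hochberg, all 14505 genes) below 0.05. Among all tested genes 29.7% were called higher and 29.5% lower, so that 59.3% passed in all. The share of the 10 genes called lower was near that of all genes. The groups did not overlap for 8 of the 10 genes, 5 higher and 3 lower, against 64.7% of all tested genes, 32.4% higher and 32.3% lower. Because so many genes passed, size was counted as well. Called and changed at least 1.5-fold were 4 of 10 genes, against 26.5% of all tested genes. All 4 were higher, against 11.5% of all tested genes higher and 15.0% lower by that rule. At 2-fold or more it was 1 gene, Pycr1, against 14.8% of all tested genes. Shmt2, at 1.61-fold, lay just inside the 1.5-fold size and Shmt1, at 1.49-fold, just outside. The median log2 fold change of the 10 genes was 0.39, and that of all tested genes was -0.00479.

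**Figure D1:**
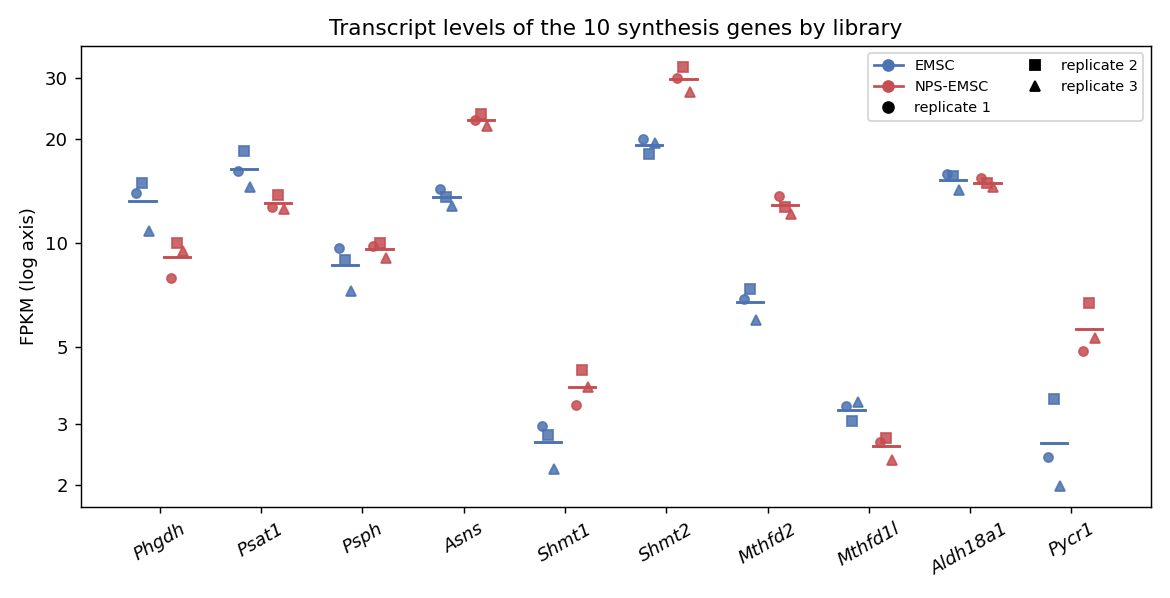
Deposited FPKM of each gene in every library, on a log axis, with EMSC in blue and NPS-EMSC in red. Symbols mark the replicate number, which pairs no libraries, and bars the group mean. The groups do not overlap for 8 of the 10 genes, and do for Psph and Aldh18a1.

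**Figure D2:**
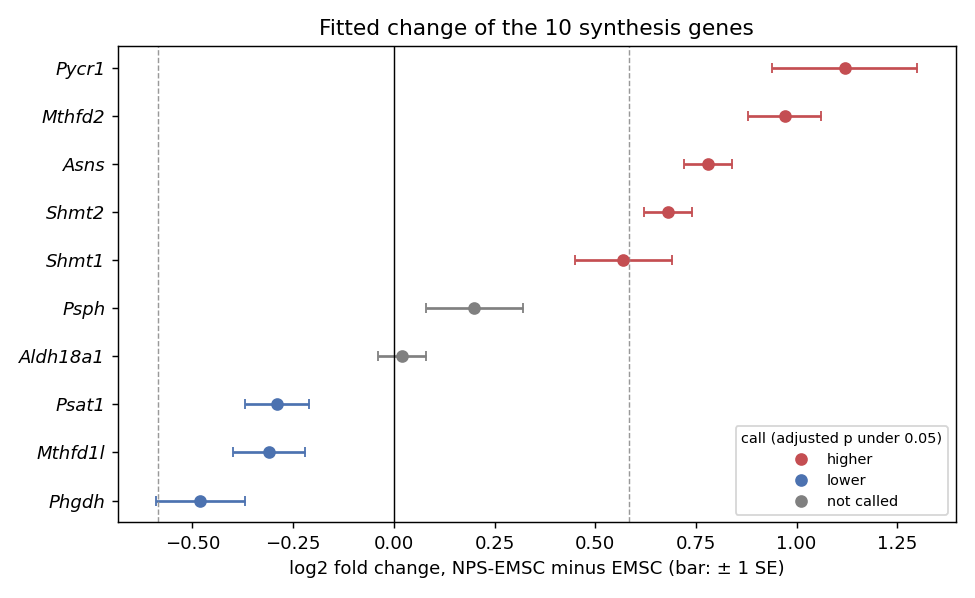
Fitted log2 fold change of each gene, NPS-EMSC minus EMSC, with bars of 1 SE and dashed lines at a 1.5-fold change. Pycr1, Mthfd2, Asns and Shmt2 lie beyond the upper dashed line, and Phgdh, Mthfd1l and Psat1 lie below 0 but inside the lower one.

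The promoters of the synthesis genes were read from RefSeq, assembly GRCr8, which gave a window of 300 bases, 250 before and 50 after the annotated start, for 9 of the 10 genes, all but Aldh18a1. These coordinates belong to the RefSeq windows alone, since the sources used here do not name the genome build of the counts. Windows were searched on both strands for TGATGNAA, the core of the C/EBP-ATF composite element, for its form TGATGCAA, and for GATGCAA, which lies inside the latter. GATGCAA and the E-box CACGTG were added to the search after the sequences of Psat1 and Shmt1 had been seen, so their presence there is no finding. The upstream 250 bases of 4 genes are shown 5′ to 3′ on the strand of the gene: Pycr1 and Psat1 as the genes with a match, Asns as the riser with the smallest p, and Shmt1 for another motif named below. Capitals mark, on either strand, the match to TGATGCAA in Pycr1, to the shorter GATGCAA alone in Psat1 and to CACGTG in Shmt1. The windows lie on the minus strand at chr10:106420813-106421062 (Pycr1), chr1:222645409-222645658 (Psat1), chr4:36769416-36769665 (Asns) and chr10:45990342-45990591 (Shmt1).
Pycr1: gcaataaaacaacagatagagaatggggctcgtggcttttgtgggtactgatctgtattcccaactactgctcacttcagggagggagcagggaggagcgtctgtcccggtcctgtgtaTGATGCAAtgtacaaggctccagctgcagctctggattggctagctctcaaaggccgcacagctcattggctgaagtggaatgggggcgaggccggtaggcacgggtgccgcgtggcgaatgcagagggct
Psat1: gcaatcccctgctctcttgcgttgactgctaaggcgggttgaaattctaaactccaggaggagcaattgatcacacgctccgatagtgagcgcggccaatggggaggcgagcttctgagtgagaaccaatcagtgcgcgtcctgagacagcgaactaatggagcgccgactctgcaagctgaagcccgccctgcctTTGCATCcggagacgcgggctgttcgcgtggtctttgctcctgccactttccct
Asns: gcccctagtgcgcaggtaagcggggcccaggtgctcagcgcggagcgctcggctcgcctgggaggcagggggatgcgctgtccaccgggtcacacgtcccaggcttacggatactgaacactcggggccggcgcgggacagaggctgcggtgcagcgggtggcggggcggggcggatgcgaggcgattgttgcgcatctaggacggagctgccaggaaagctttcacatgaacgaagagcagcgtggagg
Shmt1: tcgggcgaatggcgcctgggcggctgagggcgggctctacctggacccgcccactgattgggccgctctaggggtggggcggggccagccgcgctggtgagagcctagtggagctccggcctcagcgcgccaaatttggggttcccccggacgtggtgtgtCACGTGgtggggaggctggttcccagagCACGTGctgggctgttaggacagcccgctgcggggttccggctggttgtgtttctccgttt

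TGATGCAA was found in 1 of the 9 windows, that of Pycr1, at positions -131 to -124 from the start, on the strand of the gene. Among 11172 tested genes with a window, 0.653% held it, and 2.26% held the wider TGATGNAA, which among the 9 genes was again in Pycr1. The shorter GATGCAA was also found in Psat1, at -54 to -48 on the opposite strand. With the Pycr1 site, which holds the same letters, this made 2 of 9 genes, against 2.15% of tested genes. That count is no finding, since GATGCAA was added after the Psat1 window had been seen. Pycr1 had the largest rise of the 10 genes and Psat1 fell. Asns, Mthfd2 and Shmt2, the other genes beyond 1.5-fold, had no match to these letters in this window, which says nothing of other positions or of other forms of the element. The E-box CACGTG, which is its own reverse complement, was found only in Shmt1 among the 9 windows, at 2 places, against 9.75% of tested genes with at least 1. This motif too was added after the window had been seen.

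The same search was made in the gene lists described further on. TGATGCAA was in 7 of 11 listed synthetase genes with a window, 5 of 22 ATF4 regulators and effectors and 2 of 9 transporters. It was in 1 of 11 genes of glutamine, glutamate and aspartate metabolism and in no gene of the other lists. Among all tested genes 0.653% held it. In the synthetase genes Cars1 and Yars1 the match lay after the start. Among the regulators and effectors with a match was Herpud1, which fell. Stretches of 30 bases are shown for 3 of the genes with a site before the start, as examples. All 3 genes rose, and the others with such a site, Herpud1 among them, are not shown. The stretches are set under one another with the match in capitals, on the strand that reads TGATGCAA. They show the bases that flank it beside those of Pycr1 above. They lie at chr2:62114811-62114840 (Tars1, gene on the minus strand), chr3:126795953-126795982 (Chac1, gene on the plus strand) and chr1:190645938-190645967 (Nupr1, gene on the minus strand). A match is a description of letters and not a bound site.
Tars1: agctaaccagcTGATGCAAcgggacgccag
Chac1: cctagcaggagTGATGCAAcggcggagaag
Nupr1: caagccctgtcTGATGCAAtctggcctttt

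The route from glycolysis to serine begins with Phgdh, the dehydrogenase that takes 3-phosphoglycerate out of glycolysis. Its level was 13.9, 14.9 and 10.8 FPKM in the 3 EMSC libraries and 7.95, 10 and 9.47 FPKM in the 3 NPS-EMSC libraries. All NPS-EMSC values lay below all EMSC values, although EMSC replicate 3 stood close to the NPS-EMSC range. Phgdh fell by 28.4% (log2 fold change -0.48, SE 0.11, adjusted p = 9.92e-04 by edgeR).

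Psat1, the aminotransferase of the next step, had 16.1, 18.4 and 14.5 FPKM in EMSC and 12.7, 13.8 and 12.5 FPKM in NPS-EMSC. The groups did not overlap, with a gap smaller than the spread within EMSC. Psat1 fell, with a log2 fold change of -0.29 (SE 0.08, adjusted p = 0.00533 by edgeR). This call rested on EMSC replicate 2, the highest value, without which the log2 fold change was -0.19 and the edgeR adjusted p 0.0674.

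Psph, the phosphatase that releases serine, had 9.70, 8.91 and 7.29 FPKM in EMSC and 9.81, 10 and 9.03 FPKM in NPS-EMSC. These ranges overlapped and no change was called (log2 fold change 0.20, approximate 95% interval -0.03 to 0.43, edgeR adjusted p = 0.144). Without EMSC replicate 3, the lowest value, the log2 fold change was 0.09. Within a library, the ratio of Phgdh to Psph was 1.53 ± 0.127 in EMSC and 0.953 ± 0.125 in NPS-EMSC (SD, n = 3). The ratio of Psat1 to Psph was 1.90 ± 0.212 and 1.35 ± 0.0479. Both ratios were lower in every NPS-EMSC library than in any EMSC library. Such a ratio does not depend on how libraries are scaled. With 3 libraries against 3, the two-sided exact permutation test can give no p below 0.1, which it gave for both ratios (0.16 adjusted over the 8 ratios examined).

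Of the glycolytic genes around the branch point, 8 of 14 tested rose (57.1%, against 29.7% of all tested genes) and 6 were not called. Pgam1, the mutase that consumes 3-phosphoglycerate on the way to pyruvate, rose from 183 ± 3.75 to 293 ± 7.05 FPKM (SD, n = 3; log2 fold change 0.72, SE 0.04, edgeR adjusted p = 2.86e-13). Tpi1, the triosephosphate isomerase, and Ldha, the lactate dehydrogenase, rose 1.46-fold and 1.43-fold. Pgam1 and Phgdh draw on the same substrate, and their transcripts moved in opposite directions.

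Asns, the amidotransferase that makes asparagine, is a standard reporter gene of ATF4 activity. It had 14.3, 13.6 and 12.8 FPKM in EMSC and 22.6, 23.6 and 21.8 FPKM in NPS-EMSC. The groups were wide apart relative to a spread of 0.792 and 0.869 FPKM (SD, n = 3). Asns rose 1.72-fold (log2 fold change 0.78, SE 0.06, edgeR adjusted p = 2.88e-11), more than 90.8% of all tested genes on the log2 scale. By level it was the 4th of the 10 genes in EMSC and the 2nd in NPS-EMSC. Asrgl1, whose product hydrolyses asparagine, rose as well, from 4.05 ± 0.301 to 7.32 ± 0.144 FPKM (log2 fold change 0.89), and was named after its values were seen.

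In the wider list of glutamine, glutamate and aspartate metabolism, 5 of 12 rose and 2 fell (41.7% and 16.7%, against 29.7% and 29.5% of all tested genes), and 5 were not called. Slc25a22, a mitochondrial glutamate carrier, rose 1.82-fold. Gfpt1, which uses the amide of glutamine to make hexosamines, fell with a log2 fold change of -0.59.

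One-carbon units enter the folate pool mainly through serine hydroxymethyltransferase. Shmt2, the mitochondrial enzyme, was the most abundant of the 10 transcripts per length in both groups. It had 19.9, 18.1 and 19.4 FPKM in EMSC and 29.9, 32.2 and 27.3 FPKM in NPS-EMSC. The lowest NPS-EMSC value lay well above the highest EMSC value, and Shmt2 rose with a log2 fold change of 0.68 (SE 0.06, edgeR adjusted p = 6.57e-10). Shmt1, the cytosolic enzyme, had 2.96, 2.79 and 2.23 FPKM in EMSC and 3.40, 4.29 and 3.85 FPKM in NPS-EMSC. It rose by 0.57 on the log2 scale (SE 0.12, edgeR adjusted p = 2.66e-04), also without overlap. Shmt2 made up 87.8 ± 1.63% of the summed FPKM of both genes in EMSC and 88.6 ± 1.12% in NPS-EMSC (SD, n = 3). The log2 ratio between them differed by 0.10 and the groups overlapped (exact permutation p = 0.5), so no shift between the compartments was detected at this step. Its size rested on single libraries: it was 0.05, 0.02 and 0.23 without EMSC replicate 1, 2 or 3, and 0.01 and 0.17 without NPS-EMSC replicate 1 or 3.

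Further along the mitochondrial route the genes parted. Mthfd2, the dehydrogenase and cyclohydrolase of proliferating cells, had 6.91, 7.36 and 5.98 FPKM in EMSC and 13.7, 12.7 and 12.1 FPKM in NPS-EMSC. Every NPS-EMSC library was above every EMSC library, and Mthfd2 rose 1.95-fold (log2 fold change 0.97, SE 0.09, edgeR adjusted p = 1.80e-09). Mthfd1l, the ligase that releases formate to the cytosol, had 3.39, 3.07 and 3.47 FPKM in EMSC and 2.66, 2.74 and 2.37 FPKM in NPS-EMSC. It fell by 0.31 on the log2 scale (SE 0.09, edgeR adjusted p = 0.00593), again without overlap. Without NPS-EMSC replicate 3 this call held only narrowly (log2 fold change -0.25, edgeR adjusted p = 0.0486). Mthfd2l, a paralog of Mthfd2, was low, at 1.08 ± 0.0919 and 0.866 ± 0.427 FPKM, and was not called (edgeR adjusted p = 0.464). The log2 ratio of Mthfd2 to Mthfd2l was 1.38 higher in NPS-EMSC without overlap (exact permutation p = 0.1), and 0.88 higher without NPS-EMSC replicate 1, where it was 5.03.

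Mthfd1, the cytosolic enzyme that joins dehydrogenase, cyclohydrolase and synthetase activities, fell from 13.7 ± 0.379 to 9.30 ± 0.364 FPKM (SD, n = 3; log2 fold change -0.52, SE 0.06, edgeR adjusted p = 1.48e-07). The order of the mitochondrial and the cytosolic transcript was thereby turned. Mthfd2 stood at 0.445 to 0.542 times the FPKM of Mthfd1 within the EMSC libraries and at 1.31 to 1.52 times within the NPS-EMSC libraries. The log2 ratio differed by 1.49 between the groups, with SDs of 0.14 and 0.12, and the exact permutation p was 0.1, the smallest possible here. The ratio of Mthfd1l to Mthfd1 differed by 0.21 on the log2 scale, with overlapping groups (exact permutation p = 0.2).

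**Figure D3:**
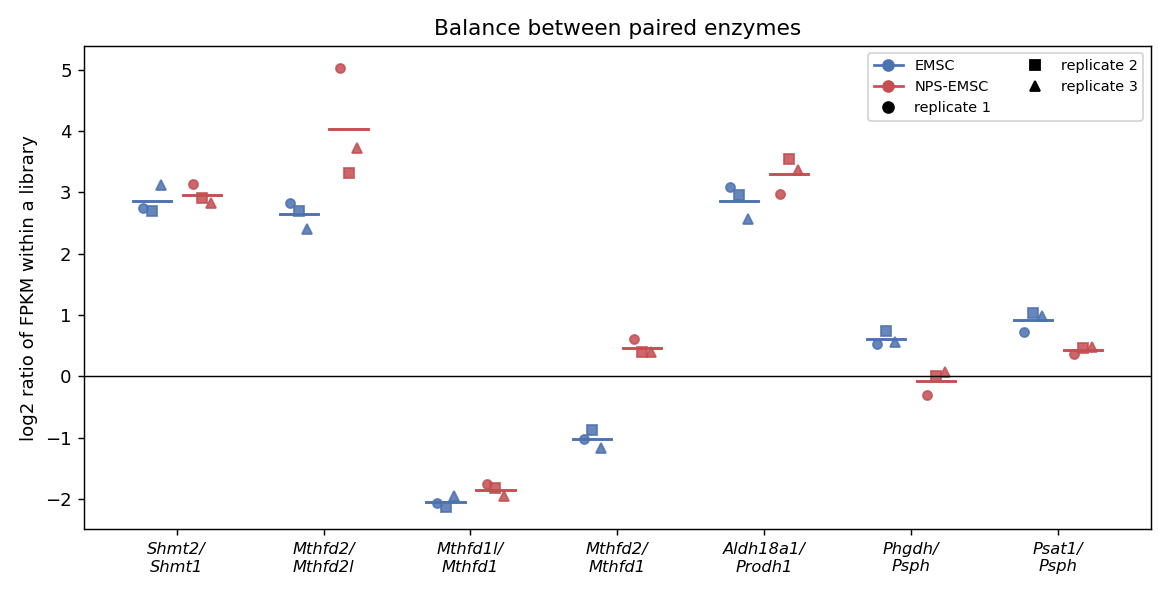
Log2 ratio of the FPKM of 2 genes within each library, for 7 of the 8 pairs of enzymes examined, with EMSC in blue, NPS-EMSC in red, symbols for the replicate number and bars for the group mean. The ratio of Mthfd2 to Mthfd1 crosses 0 between the groups, and the ratio of Shmt2 to Shmt1 overlaps.

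Of the 20 other genes of the folate cycle and of glycine cleavage, 8 rose, 5 fell and 7 were not called. These shares of 40% and 25% compare with the 29.7% and 29.5% of all tested genes. Sfxn1, a mitochondrial serine transporter, rose from 32.7 ± 1.32 to 48.3 ± 1.21 FPKM (SD, n = 3; log2 fold change 0.61, SE 0.05, edgeR adjusted p = 4.44e-11). Mthfs, which returns 5-formyltetrahydrofolate to the cycle, fell from 2.56 ± 0.122 to 0.896 ± 0.0855 FPKM. Named after their values were seen, Aldh1l2, the mitochondrial enzyme that oxidises 10-formyltetrahydrofolate, rose by 0.37 on the log2 scale, and Aldh1l1, its cytosolic counterpart, fell by 0.78. Tyms, the thymidylate synthase, chosen likewise, was not called, at 7.11 ± 0.712 and 6.13 ± 0.683 FPKM (edgeR adjusted p = 0.0897). Mitochondrial and cytosolic genes did not part throughout, since the mitochondrial Mthfd1l fell and the cytosolic Shmt1 rose.

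Of 17 genes of de novo purine and pyrimidine synthesis, which consume one-carbon units, 6 rose and 4 fell. These shares, 35.3% and 23.5%, were near the 29.7% and 29.5% of all tested genes, so the counts show nothing about the list. Ppat, the first committed enzyme of purine synthesis, rose 1.5-fold, and Gart, which takes formyl groups from folate, fell with a log2 fold change of -0.56. Ctps2, a CTP synthase, fell with one of -0.44. Of 14 users of serine and glycine, 5 rose and 4 fell, 35.7% and 28.6%, likewise near all tested genes. Alas1, which condenses glycine with succinyl-CoA in haem synthesis, rose 1.66-fold, Serinc5 rose 1.52-fold, and Sptlc2, a subunit of the serine palmitoyltransferase of sphingolipid synthesis, fell with a log2 fold change of -0.54. In the methionine cycle, transsulfuration and polyamine list, 3 of 14 rose and 8 fell (21.4% and 57.1%, against 29.7% and 29.5% of all tested genes). Cth, which releases cysteine from cystathionine, rose from 27.6 ± 3.38 to 50.1 ± 2.40 FPKM (SD, n = 3), and Ahcyl1 rose 1.56-fold. Ahcy, a separate gene of the list named after its values were seen, fell from 30.9 ± 1.63 to 24.3 ± 1.08 FPKM. Sms, spermine synthase, fell from 42.6 ± 2.29 to 17.1 ± 1.08 FPKM (log2 fold change -1.27, SE 0.05).

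Among the proline synthesis genes of the 10, a change was called only at the last step. Aldh18a1, which reduces glutamate in the first, committed steps, had 15.8, 15.6 and 14.2 FPKM in EMSC and 15.4, 14.9 and 14.5 FPKM in NPS-EMSC. The ranges overlapped, and the approximate 95% interval of its log2 fold change ran from -0.10 to 0.13 (edgeR adjusted p = 0.815). Pycr1, the mitochondrial reductase that forms proline, is the gene whose window printed above held the letters TGATGCAA. It had 2.41, 3.54 and 1.99 FPKM in EMSC, from 168 to 306 reads, and 4.87, 6.71 and 5.33 FPKM in NPS-EMSC. The groups did not overlap, and the SE of its log2 fold change, 0.18, was the widest of the 10 genes. Pycr1 rose 2.18-fold (log2 fold change 1.12, edgeR adjusted p = 4.71e-05), more than 94.1% of all tested genes on the log2 scale.

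Pycr3, the cytosolic reductase of the same step, named after its values were seen, fell from 10.8 ± 0.877 to 6.68 ± 0.133 FPKM (log2 fold change -0.65, SE 0.11).

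Of the 10 other genes of proline and ornithine metabolism, 2 rose and 5 fell (20% and 50%, against 29.7% and 29.5% of all tested genes). Oat, the ornithine aminotransferase that feeds the same intermediate from ornithine, fell from 206 ± 6.65 to 103 ± 5.4 FPKM (SD, n = 3; log2 fold change -0.95, SE 0.05, edgeR adjusted p = 5.22e-15). Aldh4a1, which oxidises that intermediate back to glutamate, fell with a log2 fold change of -0.42. Prodh1, the proline oxidase, was low at 2.09 ± 0.283 and 1.55 ± 0.362 FPKM and was not called (edgeR adjusted p = 0.0983), and the ratio of Aldh18a1 to Prodh1 overlapped between the groups (exact permutation p = 0.2). P4ha1, the catalytic subunit of a collagen prolyl hydroxylase, rose from 87.4 ± 4.06 to 149 ± 1.22 FPKM.

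By level per length, the order of the 10 genes differed between the groups. In EMSC the means ran from Shmt2 at 19.1 FPKM through Psat1 at 16.3, Aldh18a1 at 15.2, Asns at 13.6 and Phgdh at 13.2 FPKM, and the ranges of each of these neighbours overlapped. In NPS-EMSC Shmt2 at 29.8 FPKM and Asns at 22.7 FPKM stood clear of each other and of the rest. Mthfd2 moved from the 7th to the 5th place, where its range overlapped that of Psat1, and Phgdh from the 5th to the 7th, where its range overlapped that of Psph. Mthfd1l went from the 8th place to the 10th.

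Within the groups many of the 10 genes were low or high in the same libraries, a pattern looked for after the values were seen and read on library-scaled values. EMSC replicate 3 held the lowest value of its group for 8 of the 10 genes, against 33.2% of all tested genes. NPS-EMSC replicate 2 held the highest of its group for 8 of the 10 genes, against 37.1% of all tested genes. The same library was lowest for 7 of the 10 proliferation markers in EMSC, and the same one was highest for 7 of them in NPS-EMSC. Of the 12 tRNA synthetase genes described further on, 5 were lowest in EMSC replicate 3 and 4 highest in NPS-EMSC replicate 2. The part of proliferation in this spread was not tested. The direction of every call among the 10 genes was the same without either library.

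The genes named as ATF4 targets can be set beside the rest of the ATF4 response, with the transcript level of Atf4 itself at 126 ± 7.52 FPKM in EMSC and 188 ± 2.78 in NPS-EMSC (SD, n = 3; log2 fold change 0.63). Of 24 regulators and effectors of ATF4, 21 rose and 2 fell (87.5% and 8.33%, against 29.7% and 29.5% of all tested genes). This list, like the synthetase and transporter lists below, was chosen with earlier results of these data known. Its counts are therefore a description and no independent support. Gdf15, a secreted stress factor, rose from 0.540 ± 0.325 to 13.4 ± 0.946 FPKM (log2 fold change 4.54, SE 0.24). Vldlr, a lipoprotein receptor gene, and Ppp1r15a, the stress-induced eIF2 phosphatase subunit, rose 2.09-fold and 2.03-fold. Those that fell were the amino acid sensing kinase gene Eif2ak4, at an edgeR adjusted p of 0.0487, and Herpud1, a gene of endoplasmic reticulum protein degradation, with a log2 fold change of -0.25. Both were named after their values were seen, and the call of Eif2ak4 was lost under several alternatives, among them leaving out EMSC replicate 3, NPS-EMSC replicate 2 or NPS-EMSC replicate 3.

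Cytosolic aminoacyl-tRNA synthetases load amino acids onto tRNA. The list held the 12 picked for the ATF4 response, with earlier results of these data known, and not the whole class. All 12 rose, against 29.7% of all tested genes. The log2 fold changes were 0.18 to 0.75, with Mars1 at 0.75, Yars1 at 0.72 and Sars1, the seryl-tRNA synthetase gene, at 0.67. Of 11 amino acid transporters of this response 7 rose (63.6%, against the same 29.7%) and 4 were not called. Slc7a11, the cystine transporter, and Slc7a1, a transporter of cationic amino acids, rose 3.63-fold and 2.41-fold. Slc38a2, which imports neutral amino acids including serine, glutamine and proline, rose from 161 ± 9.58 to 301 ± 29.4 FPKM. The median log2 fold changes were 0.62 for the regulators and effectors, 0.67 for the transporters and 0.50 for the synthetases. The corresponding value for the 10 synthesis genes was 0.39, with Phgdh, Psat1 and Mthfd1l on the other side of 0. All of these come from the same 6 libraries, and the difference between the lists was not tested.

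**Figure D4:**
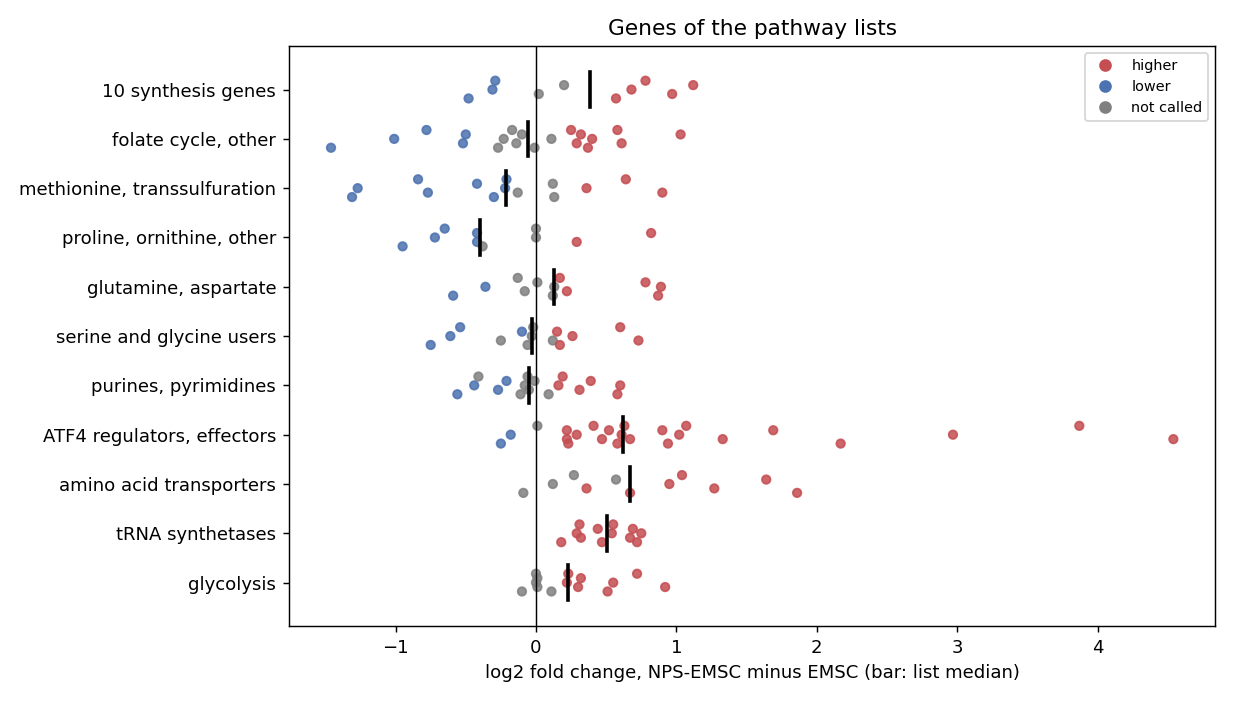
Fitted log2 fold change of every tested gene of the 10 synthesis genes and of the 10 other lists, coloured by call, with a black bar at the median of each list. The listed tRNA synthetases of the ATF4 response all lie above 0, and the 10 synthesis genes lie on both sides.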

How the data were processed

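The 6 RNA-seq libraries were compared by group. The authors deposited whole-number read counts, a row per gene and a column per library. The authors deposited FPKM values too, and for all 20653 genes these were the counts divided by 1 fixed length per gene and by the library total, to within 0.1 percent, so they are no separate measurement. Tools named in the submitters' processing notes, without role or order, are HTSeq, HISAT2, fastp, DESeq, StringTie and, for R, version 3.2.0. The sources used here give no genome build, annotation, strand setting or handling of multiply mapped reads, so overlapping genes and close copies cannot be told apart.

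Counts of all genes were fitted with edgeR 4.0.16 in R 4.3.3 (TMM, filterByExpr with a minimum count of 10, robust glmQLFit, glmQLFTest), EMSC against NPS-EMSC, without a block. The procedure was tested on simulated data, with 50 genes changed at each size. It called 40% of those changed 1.2-fold, 82% at 1.5-fold, 92% at 2-fold and 100% at 4-fold, and 6 unchanged genes. Far fewer genes were changed there than were called in the data, so scaling under so wide a change was not tested. Untested genes held at most 0.0393% of a library's reads. Log2 fold changes use a prior count of 2, the SE is the absolute log2 fold change over the square root of F, and approximate intervals are built from it.

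The 10 genes, the lists and the tests were chosen with earlier results of these data known. Named are the 10 genes, Atf4, the paired enzymes, up to 3 called genes of each list by smallest p and up to 2 of each marker list by level. Markers that define a cell type are named beside these, and genes named otherwise are said to be so. FPKM ratios within libraries were compared with exact two-sided permutation tests. Some results of the named genes are not reported here. Prodh is listed as Prodh1, its RefSeq synonym. Alternatives were DESeq2 1.42.0, limma-voom (limma 3.58.1), upper-quartile or RLE factors, other filters, log2(FPKM + 1) and log2(FPKM + 0.1), a replicate block, leaving out single libraries, and a stricter adjusted p of 0.01.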

Additional observations from a re-analysis of the deposited data

How the results depend on the processing

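Over the 17 alternatives the count of the 10 genes called higher was 5 throughout, the count called lower 2 to 3 and the count called and at least 1.5-fold 4 to 5. Psat1 lost its call without EMSC replicate 2 (log2 fold change -0.19, edgeR adjusted p = 0.0674; -0.37 to -0.19 over its alternatives). Aldh18a1, never called, ranged from -0.03 to 0.04 and so changed sign. The median of 0.39 became 0.28 on log2(FPKM + 1) values with and without a filter, and 0.27 to 0.46 when libraries were left out, the lowest without EMSC replicate 3. In the other proline genes, those called higher went from 2 to 1 on log2(FPKM + 1) values with and without a filter and on log2(FPKM + 0.1) values, and were 1 to 2 leaving out libraries (1 without EMSC replicate 3). In serine and glycine users, those called higher went from 5 to 3 under the same FPKM settings. ATF4 regulators called lower went from 2 to 1, through Eif2ak4, under RLE factors, DESeq2, no low-count filter, log2(FPKM + 1) without a filter, the replicate block and an adjusted p of 0.01, and were 1 to 2 leaving out libraries. With upper-quartile factors 1 transporter and 1 glycolytic gene were called lower, and leaving out libraries gave 0 to 1 in each list (1 without EMSC replicate 3 in both, NPS-EMSC replicate 2 for transporters and EMSC replicate 2 for glycolysis). By edgeR with TMM, DESeq2 and limma-voom with all libraries this count was 0 in both lists. In that edgeR fit it was 0 also at an unadjusted p under 0.05, which was not counted for the other tools. The cause of these changes was not tested.

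The replicate numbers pair no libraries: deviations of same-numbered libraries from their group means correlated at -0.0389, 0.046 and 0.0356, and EMSC replicates 1 and 3 correlated best with another number. With the replicate block 5 of the 10 genes were higher and 3 lower, with a median of 0.39, and the 8 ratios kept their direction, at an exact p of 0.25 or more, the smallest that 3 pairs allow. The largest shift of the median of all genes by scaling was -0.0334 on the log2 scale, with upper-quartile factors.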
